A study of Bos taurus with 6 samples.

Results

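The cytosolic ribosomal proteins are the proteins of the large (RPL genes) and small (RPS genes) subunits of the ribosome that translates nuclear-encoded mRNA. Members were taken by gene symbol from the array's annotation, as symbols beginning with RPL or RPS followed by a digit or P, and RPSA, leaving out the RPS6K kinases. This gave 68 genes with 121 probes, of 15216 genes with a symbol and 43794 gene probes in all, 43 genes of the large and 25 of the small subunit. A further symbol matched the rule, RPS19BP1, which encodes an RPS19-binding protein that is no ribosomal protein, and it is described apart. Of the 77 canonical subunit genes listed, 62 had a probe under their symbol. The remaining canonical genes were not analysed here. The other 6 of the 68 genes are paralogue forms by symbol.

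A ribosome holds 1 copy of nearly every one of these proteins, and the cell makes them in step with each other and with ribosomal RNA. Their mRNAs begin with a terminal oligopyrimidine (TOP) tract, through which mTOR signalling sets how actively they are translated, so the mRNA level and the protein output can part. In granulosa cells, FSH is known to act on mTOR and on the S6 kinase, and the cells of a growing follicle divide and secrete actively.

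The study compared granulosa cells, the steroid-producing cells inside the ovarian follicle, of 3 cows treated with cetrotide and 3 control cows. Cetrotide (cetrorelix) blocks the pituitary receptor of gonadotropin releasing hormone and so lowers LH. All animals were multiparous Holsteins, all were stimulated with gonadotropins, and in both groups the pre-ovulatory follicles were aspirated 68 hours after the last FSH injection, a coasting period without FSH. The labels call the cells in vivo samples and also mark in vitro production, and do not say which animals share an array. Each of 6 two-colour arrays carried both RNAs, with the cetrotide RNA in Cy5 on 3 arrays of 1 slide and in Cy3 on 3 arrays of the other. The pair of arrays that share an area number across the slides formed 1 dye-swap replicate, so n = 3, and every ratio is cetrotide over control on the log2 scale.

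Of 18 granulosa markers tested, 16 were above background for the control RNA on all 6 arrays, FSHR, CYP19A1, INHA and AMH among them, which fits the labelled cell type. Each RNA of each array had 53.5% to 82.5% of its probes above background. The tests numbered 27429, counting each probe without a gene name as 1. In bulk cells, fewer cells of a type and less RNA per cell cannot be told apart. Replicates differed in their markers. In replicate 3, 17 of the 18 granulosa markers were below 0 and 25 of 27 cell cycle genes, while 10 of 10 epithelial markers were above 0. In replicate 1, 13 of 15 theca, 9 of 10 endothelial and 15 of 15 leukocyte markers were above 0, against 48.3% of all tests. In replicate 3 these were 8 of 15, 9 of 10 and 14 of 15, against 51.9% of all tests. The members' median is therefore given without each replicate.

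Over the 3 replicates the ribosomal protein genes had a median ratio near 0, while most lay on 1 side of 0 within each replicate. Their median log2 ratios were 0.27, 0.089 and -0.36 in replicates 1, 2 and 3, where the medians of all 27429 tests were -0.01, -0.02 and 0.01. Of the 67 genes tested, 49 were above 0 in replicate 1, 47 in replicate 2 and 8 in replicate 3, against 48.3%, 45.6% and 51.9% of all tests. No small subunit gene was above 0 in replicate 3, of 25 tested. The pattern of above 0 in the first pair of replicates and below 0 in the third was held by 39 of the 67 genes and by 12% of all tests. It was noticed in these data and has no test of its own, as each replicate is 1 average.

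**Figure D1:**
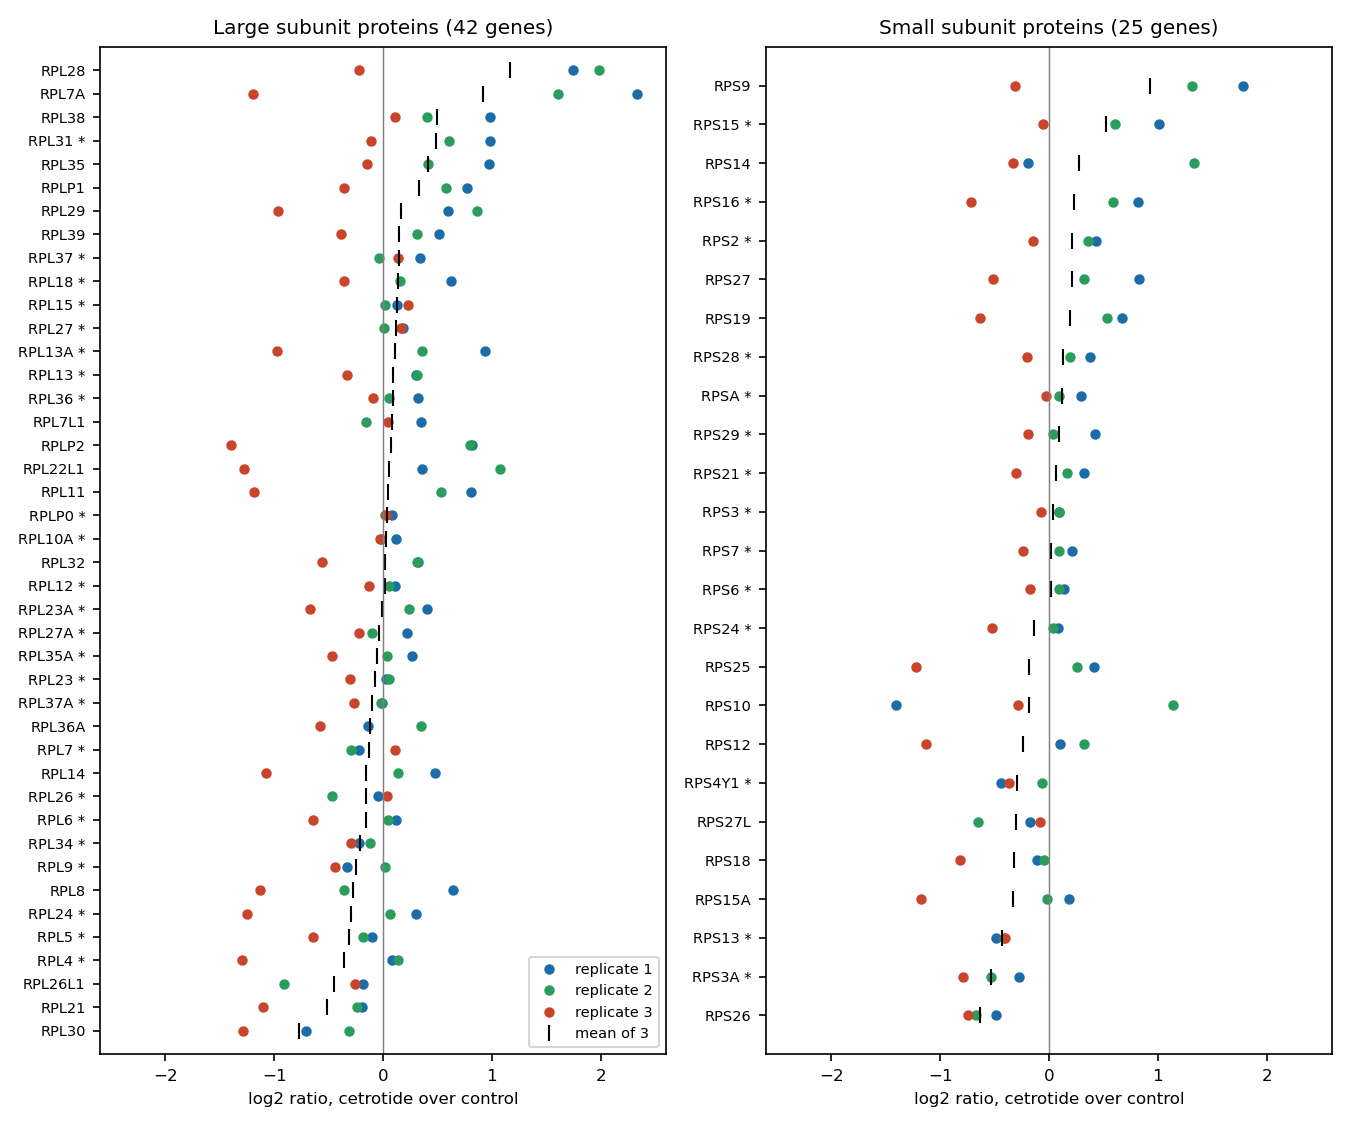
Log2 ratio of cetrotide over control (x axis) for each ribosomal protein gene tested (y axis), 42 of the large and 25 of the small subunit, sorted by mean. Points are the 3 dye-swap replicates, the bar is their mean, and an asterisk marks a gene whose probe has a mean log2 intensity above 14. Replicate 3 lies left of 0 for all but 8 genes.

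Over the mean of the replicates the median of the 67 genes was 0.022, with 37 genes above 0 and 30 below, against 46.8% of all tests above 0. By limma, 0 of the 67 genes passed an adjusted p of 0.05, as did 0% of all tests. With the threshold at an unadjusted p of 0.05, 4 members (RPS26, RPS13, RPS3A and RPL30) lay below 0 and 0 above, where 6.46% of all tests lay below and 8% above, so the members' share was near or under the background. None of the 67 had a ratio above 0 on all 6 arrays and 2 had one below 0 on all 6, against 7.86% and 7.41% of all tests. At least 1.5-fold above control were 3 members (RPL28, RPS9 and RPL7A; 8.09% of all tests) and at least 1.5-fold below were 2 (RPL30 and RPS26; 4.77%). In the replicates, 4 members were above 0 in all 3 and 12 below 0 in all 3, against 18.2% and 20.4% of all tests. With arrays centred on their median and no intensity-dependent (loess) correction, 14 of the 67 genes were above 0 and the median was -0.15.

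The median rested on single replicates. It was -0.10 without replicate 1, -0.05 without replicate 2 and 0.15 without replicate 3. Without replicate 3, limma put 19 members above 0 and 4 below at an unadjusted p of 0.05, where 11% and 6.43% of all tests were, and 0 passed adjusted over all tests.

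Large and small subunit genes had like medians. Their median log2 ratios were 0.023 and 0.022 over the replicates. In replicate 1 they were 0.30 for the large and 0.19 for the small subunit, in replicate 2 0.055 and 0.096, and in replicate 3 -0.36 and -0.33. The large minus small difference of medians was thus 0.12, -0.041 and -0.032, with an SD of 0.089 over the replicates, larger than the difference over their mean. By dye, the large subunit had a median of 0.09 where cetrotide RNA carried Cy5 and -0.04 where it carried Cy3, and the small subunit 0.14 and -0.21.

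Ratios of bright probes spread less than those of probes of middle intensity. In Cy5 the brightest 0.1% of all probes began between 37035 and 38631 and the single brightest lay between 38548 and 40970. In Cy3 the brightest 0.1% began between 34536 and 35111 and the single brightest lay between 36127 and 38676, apart from the control RNA of replicate 3, at 54534. Ribosomal protein genes made up 38 of the 462 tests with a mean log2 intensity above 14. Over all tests in that class the interquartile range of the ratios was 0.61, 0.34 and 0.85 in replicates 1, 2 and 3, against 0.87, 0.63 and 1.10 for tests between 12 and 14. Tests up to 8, a class without ribosomal protein genes, had the smallest ranges, at 0.19, 0.21 and 0.19. The 38 ribosomal protein genes above 14 had medians of 0.16, 0.049 and -0.25 in the replicates. The 18 genes between 12 and 14 had 0.14, 0.23 and -0.54, in replicate 1 no farther from 0 than the brighter class, and the 9 genes between 10 and 12 had 0.59, 0.53 and -0.97. The part of brightness in these ratios was not tested. No member probe was near the pixel limit of the scanner on any array, taken as a median pixel of 65000. Of all gene probes, at most 12 on an array were. Whether ratios of bright probes were compressed below that limit was not tested.

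**Figure D2:**
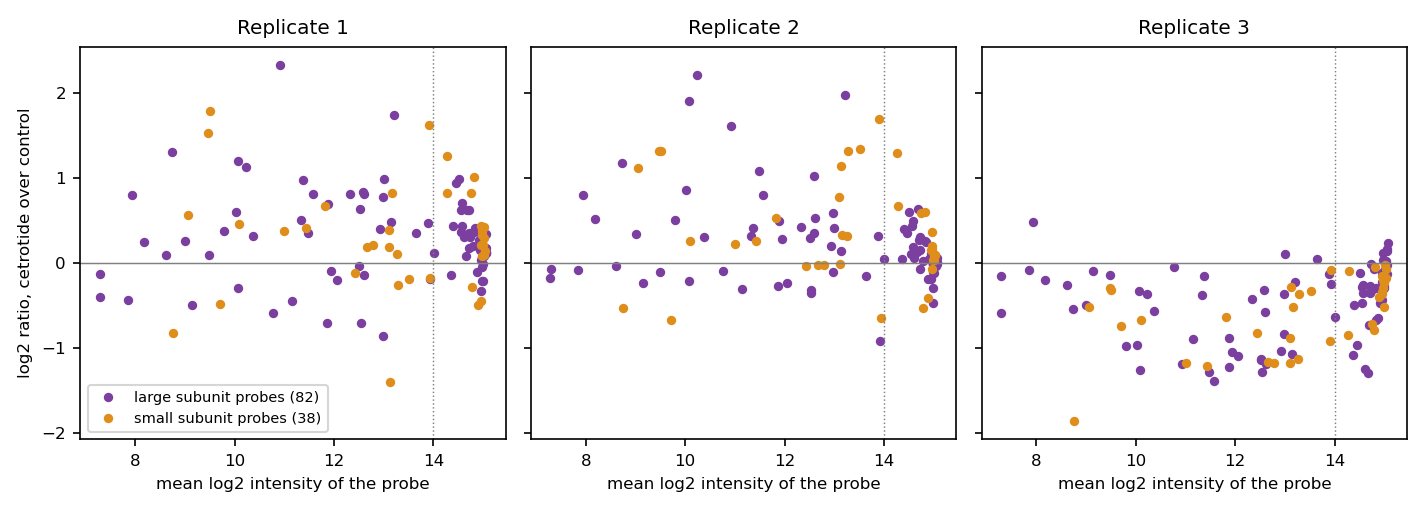
Log2 ratio of cetrotide over control (y axis) against the mean log2 intensity (x axis) of each of the 120 ribosomal protein probes above background, in each of the 3 replicates. The dotted line marks an intensity of 14. Above it the points spread less, and below it most lie above 0 in replicates 1 and 2 and below 0 in replicate 3.

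The comparison was therefore repeated with each gene represented by its brightest probe up to a mean log2 intensity of 14, a limit chosen after seeing the data, which left 39 genes. Their medians were 0.45, 0.35 and -0.63 in replicates 1, 2 and 3. Of the 39, 29 were above 0 in replicate 1, 29 in replicate 2 and 3 in replicate 3, where 48%, 45.7% and 52% of all tests on such probes were. The pattern across the replicates was held by 24 of the 39 and by 11.9% of all such tests. The median over all replicates was 0.05, with 24 genes above 0 (46.7% of all such tests), and 0 passed adjusted over all tests with limma, while the unadjusted threshold was passed by 1 above 0 and 3 below (8.07% and 6.44% of all tests). The 25 large subunit genes had a median of 0.07 and the 14 small subunit genes -0.09.

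In both dye orientations replicate 3 had the lowest median of these 39 genes. With cetrotide RNA in Cy5 the array medians were 0.32, 0.18 and -0.76 for replicates 1, 2 and 3, and with it in Cy3 0.52, 0.61 and -0.49. For all 67 genes they were 0.25, 0.13 and -0.19 in Cy5 and 0.07, 0.06 and -0.50 in Cy3. Replicates 1 and 2 changed places between the dyes for the 39 genes, and replicate 3 was the lowest in each case.

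**Figure D3:**
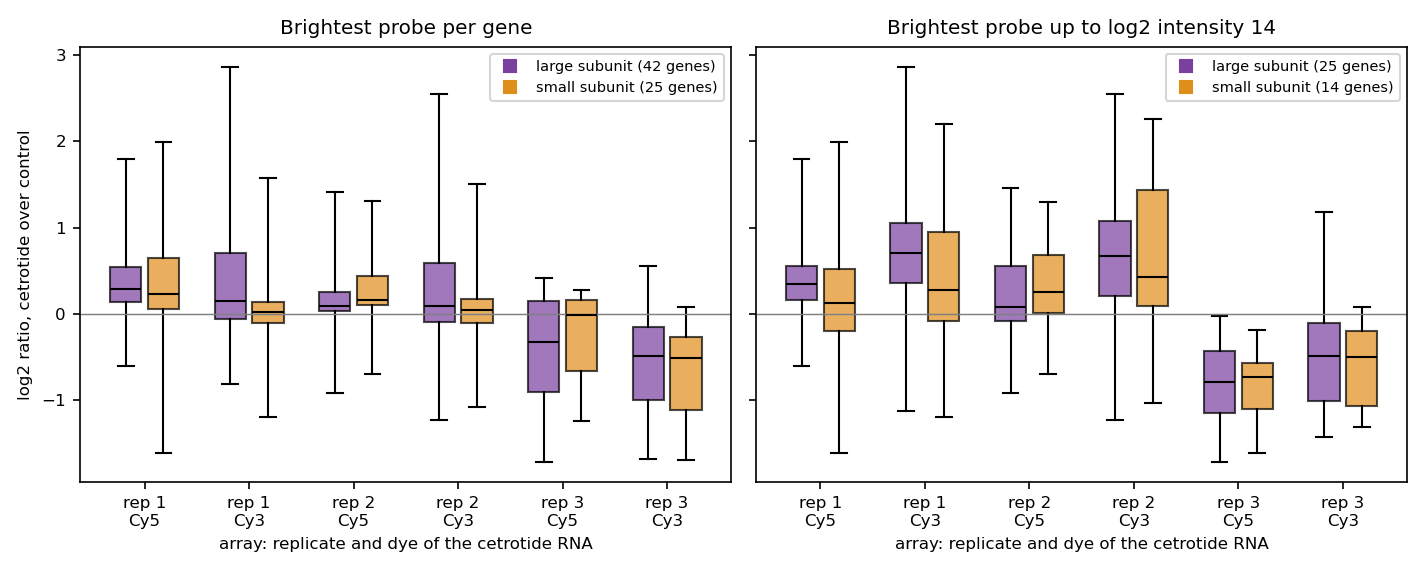
Log2 ratios of cetrotide over control (y axis) on each array (x axis: replicate and dye of the cetrotide RNA), for large and small subunit genes. Boxes span the quartiles, the line is the median and whiskers reach the lowest and highest gene. Left, the brightest probe of each of 67 genes; right, the brightest probe up to a log2 intensity of 14 for 39 genes, with both replicate 3 arrays lowest.

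RPS26, a small subunit protein at the site where mRNA leaves the ribosome, had the smallest p of the members. Its log2 ratios were -0.16, -0.31 and -0.38 on the Cy5 arrays of replicates 1, 2 and 3 and -0.81, -1.03 and -1.12 on the Cy3 arrays, below 0 on each of them. The mean was -0.63 ± 0.13 (SD, n = 3), with an adjusted p of 0.178 by limma. When limma was run on all 6 arrays with dye as a term and a replicate block by area, its adjusted p was 0.0325, the only member to pass there, where 0.962% of all tests passed as lower and 1.5% as higher. At an unadjusted p under 0.05 that fit had 2 members higher and 6 lower, against 10.5% and 8.94% of all tests. Its second probe had a mean of -1.07 ± 0.70.

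RPL30, a large subunit protein whose yeast form blocks the splicing of its own transcript, was the other member below 0 on all 6 arrays. It had -0.60, -0.17 and -1.15 on the Cy5 arrays and -0.81, -0.46 and -1.43 on the Cy3 arrays. Replicate 2 was nearest to 0 in both dyes. The mean was -0.77 ± 0.49, with a second probe at -0.74, and the adjusted p 0.305 by limma.

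RPS13 and RPS3A completed the 4 members at an unadjusted p under 0.05. RPS13, whose bacterial relative S15 binds ribosomal RNA early in assembly, had means of -0.49, -0.41 and -0.40 in the 3 replicates and -0.44 ± 0.05 over them (adjusted p = 0.185 by limma). The ratios split by dye. They were 0.16, 0.12 and 0.22 on the Cy5 arrays and -1.14, -0.95 and -1.02 on the Cy3 arrays, so that the 2 orientations did not overlap. RPS3A, which lies near the mRNA exit, had 0.03, 0.01 and -0.26 in Cy5 and -0.58, -1.07 and -1.33 in Cy3, a mean of -0.53 ± 0.26 and an adjusted p of 0.258 by limma. Both probes were bright, at mean log2 intensities of 14.89 and 14.79.

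The other genes named on the lower side by p were RPL34 (-0.21 ± 0.09), RPS4Y1 (-0.29 ± 0.20), RPL26L1 (-0.45 ± 0.40) and RPL5 (-0.31 ± 0.29). For RPL34 and RPS4Y1, as for RPS13, the 3 Cy5 arrays were above 0 and the 3 Cy3 arrays below. This split was found in 13 of the 67 members and 7.81% of all tests, and the opposite one in 0 members and 9.01% of all tests. All 13 had a mean log2 intensity above 14, where 94 of 462 tests (20.3%) split this way. The adjusted p of these 4 genes by limma ran from 0.347 to 0.459.

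On the higher side RPL28, a large subunit protein that budding yeast lacks, had the largest mean. Its ratios were 1.21, 1.41 and -0.81 on the Cy5 arrays of replicates 1, 2 and 3 and 2.27, 2.55 and 0.36 on the Cy3 arrays. Replicates 1 and 2 were well above 0 in both dyes, and replicate 3 was on both sides of it. The mean was 1.17 ± 1.21 (adjusted p = 0.465 by limma). Its other probes had 0.93 ± 1.14 and 0.99 ± 1.29.

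RPS9, a protein at the entry of the mRNA channel, had replicate values of 1.78, 1.31 and -0.31, a mean of 0.93 ± 1.10 and a second probe at 0.85. RPL7A, a large subunit protein related to the kink-turn RNA-binding family, had 2.33, 1.61 and -1.19, the widest spread of any member (0.92 ± 1.86). It was not among the genes named by p and was singled out after its values were seen. In both genes replicates 1 and 2 were above 0 and replicate 3 below it.

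Another 5 genes were named on the higher side besides RPL28, RPS9 and RPL15. RPL38, which mouse embryos need for the translation of some Hox mRNAs, had 0.99, 0.40 and 0.11 in the replicates (0.50 ± 0.45), and its Cy5 arrays of replicates 2 and 3 were at -0.08 and -0.34. RPS15, needed to export the small subunit precursor from the nucleus, had 1.01, 0.60 and -0.05 (0.52 ± 0.54). RPL31 and RPL35, at the rim of the tunnel through which the new protein leaves, had 0.49 ± 0.56 and 0.41 ± 0.56. RPL27 had 0.12 ± 0.09. The adjusted p of the 8 genes by limma ran from 0.424 to 0.576.

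The stalk, which recruits the elongation factors, is built of RPLP0, RPLP1 and RPLP2 next to RPL12. Its 4 genes had means between 0.01 and 0.33. RPLP2 had replicate values of 0.81, 0.80 and -1.39 and RPLP1 0.77, 0.58 and -0.36. RPLP0, a common reference gene for quantitative PCR, had 12 probes. Their values ran from 0.07 to 0.84 in replicate 1, from -0.07 to 1.03 in replicate 2 and from -0.50 to 0.03 in replicate 3, with medians of 0.36, 0.26 and -0.20. The probe with the highest intensity had 0.08, 0.01 and 0.02 in the same replicates and that with the lowest 0.84, 1.03 and -0.32.

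RPL5 and RPL11 carry the 5S ribosomal RNA into the large subunit and bind MDM2 when free. RPL11 had 0.81, 0.53 and -1.19 in the 3 replicates, and its second probe 0.70, 0.49 and -0.88. RPL5, with a probe at a log2 intensity of 14.88, had -0.10, -0.19 and -0.65. Of the listed proteins around the exit tunnel 6 were tested, with means from -0.36 (RPL4) to 0.49 (RPL31), 3 above 0 and 3 below. A list of mRNA path proteins, which does not hold RPS9 or RPS3A, had 6 tested, from -0.63 (RPS26) to 0.27 (RPS14). Of these 6, 5 were above 0, against 46.8% of all tests. On the mean of the Cy5 arrays 5 of them were above 0, on that of the Cy3 arrays 1, and in replicate 3 0. None of these 12 exit tunnel and mRNA path genes passed adjusted over all tests by limma.

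The paralogue forms did not follow 1 pattern. RPL22L1, the paralogue of RPL22, had 0.35, 1.08 and -1.28 in the replicates (0.05 ± 1.21). RPS27L, which p53 induces in human cells, had -0.18, -0.65 and -0.09 (-0.30 ± 0.30), while RPS27 itself had 0.82, 0.32 and -0.51. RPL26L1, nearly identical to RPL26 in protein, had -0.18, -0.91 and -0.25, and its second probe -0.29, -0.22 and -1.26. RPL26 had -0.04, -0.47 and 0.04. RPL7L1, related to a yeast protein of ribosome assembly, had 6 probes with means between -0.28 and 0.08. RPS4Y1 had -0.44, -0.07 and -0.37. Its symbol is that of a Y-linked gene, while all animals were cows. Its only probe was above background for both RNAs on all 6 arrays, at a mean log2 intensity of 14.96. RPS4X, a canonical gene, had no probe under its symbol. Which RPS4 transcript the RPS4Y1 probe measures was not tested. RPL3L, the form of striated muscle, was above background on 1 of 6 arrays for each RNA and was not tested. Replicate 2 was the lowest of the 3 for the brightest RPS27L, RPL26L1 and RPL7L1 probes, where for most members replicate 3 was.

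Probes of 1 gene mostly gave like values. Of 28 genes with several probes above background, 4 had probes of both signs and 3 differed by more than 0.5 between their lowest and highest probe. RPS15A had 3 probes between -0.34 and -0.33, RPL36A 3 between -0.29 and -0.12 and RPL18 4 between 0.08 and 0.26. RPS2 ran from 0.21 at its brightest probe to 0.80 and RPL15 from 0.13 to 0.65. RPL7 had a bright probe at -0.13 ± 0.22 and a dim one, at a log2 intensity of 7.94, at 0.69 ± 0.18. The dim probe differed by dye, with 0.23, 0.18 and -0.21 on the Cy5 arrays and 1.36, 1.43 and 1.18 on the Cy3 arrays. Ribosomal protein genes have many processed pseudogenes and near-identical copies, and how far a probe's signal holds these was not tested.

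**Figure D4:**
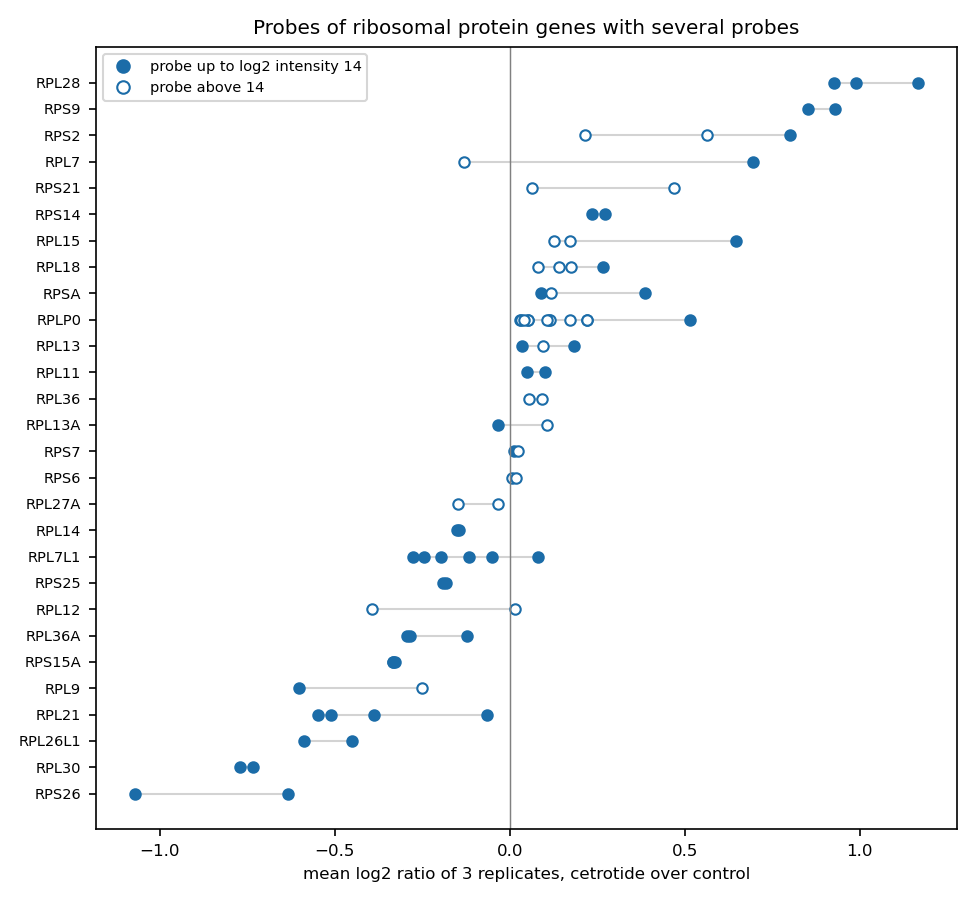
Mean log2 ratio of cetrotide over control over 3 replicates (x axis) of each probe of the 28 ribosomal protein genes with several probes above background (y axis). Filled points are probes up to a mean log2 intensity of 14 and open points are brighter ones. In RPL7, RPL15, RPS2 and RPLP0 the open points lie nearer to 0 than the farthest filled point.

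The brightest members, RPL15, RPL12, RPL10A, RPL37 and RPL27, had mean log2 intensities of 15.05 to 15.07 and ratios of 0.13 ± 0.11, 0.01 ± 0.13, 0.02 ± 0.08, 0.15 ± 0.19 and 0.12 ± 0.09. A less bright probe of RPL15 had 1.31, 1.17 and -0.54 in the replicates, and one of RPL12, at 14.36, had -0.14, 0.04 and -1.09. In both genes the brightest probe had the mean nearest to 0, while in RPL28, RPL21 and RPL13 a dimmer probe had it. RPS10 had -1.40, 1.14 and -0.29 in replicates 1, 2 and 3, and RPS14 -0.19, 1.34 and -0.33. RPL36A (-0.14, 0.35 and -0.58) and RPL9 (-0.33, 0.02 and -0.44) had the same signs. RPS10 and RPS14 were singled out after their values were seen.

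Genes that work with the ribosomal proteins did not all share their pattern. RACK1, a small subunit protein outside the symbol rule, had 0.11, 0.42 and -1.79, and FAU, which encodes RPS30 fused to a ubiquitin-like protein, 0.18, -0.02 and -0.18. The 18 other TOP mRNAs, mostly translation factors, had a median of -0.23 and medians of 0.01, -0.12 and -0.86 in replicates 1, 2 and 3, and 5 of them passed the unadjusted threshold below 0 and 0 above it, against 6.46% and 8% of all tests. Their smallest p were those of EEF1B2 (-0.78 ± 0.12), a subunit of the elongation factor 1 exchange complex, BTF3 (-0.72 ± 0.16), of the nascent chain complex, EIF3F (-0.40 ± 0.04) and TPT1 (-0.28 ± 0.05). EEF1B2, BTF3, EIF3F and TPT1 were among the 8 of 18 genes below 0 in every replicate, against 20.4% of all tests.

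Of 89 ribosome biogenesis genes, 5 passed the unadjusted threshold above 0 and 11 below it, against 8% and 6.46% of all tests, and the list median was 0.03, 0.02 and -0.04 in the replicates. WDR43 of the small subunit processome had 0.71 ± 0.11, NVL -0.39 ± 0.11, NOLC1 -0.45 ± 0.14 and EBNA1BP2 -0.65 ± 0.25. Of 17 regulators listed for TOP mRNAs, not all of them acting on translation, 2 passed above 0 and 4 below (8% and 6.46% of all tests). Among them LARP4 had 0.79 ± 0.02, MYC 1.03 ± 0.45, TIAL1 -0.38 ± 0.17 and the mTOR-activating GTPase RRAGA -0.55 ± 0.29. Mitochondrial ribosomal proteins, 74 tested, had medians of -0.10, -0.15 and -0.18, with 9 passing above 0 and 19 below (8% and 6.46% of all tests), and 21 of them were above 0 in replicate 3, against 51.9% of all tests. The difference between these lists and the cytosolic ribosomal proteins was not tested. None of their genes passed adjusted over all tests by limma.

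Cell type markers differed between the replicates. The granulosa list had medians of -0.04, 0.38 and -1.31 in replicates 1, 2 and 3, with 9, 15 and 1 of 18 markers above 0. Its summed intensity ran, in units of 1000, from 67.3 to 148 for cetrotide RNA and from 121 to 151 for control RNA, lowest in the cetrotide RNA of replicate 3. The epithelial list had medians of 0.48, 1.04 and 3.14, with 7, 8 and 10 of 10 above 0. In the same units its summed intensity ran from 14.6 to 169 for cetrotide and from 1.94 to 13.7 for control RNA, highest in the cetrotide RNA of replicate 3. Of 12 epithelial markers listed 10 were tested, and 6 of these were above background for control RNA on all 6 arrays. The 15 leukocyte markers had medians of 0.34, 0.09 and 1.03. The 10 endothelial markers had medians of 1.10, -0.015 and 0.71, with a summed intensity in replicate 1 of 7.21 for cetrotide and 1.82 for control RNA. The 15 theca markers had 0.55, -0.0026 and 0.019, with 84.1 and 17.3 in replicate 1. The median of the ribosomal protein genes was highest in that replicate, though without loess it was highest in replicate 2 (0.11 against 0.062). The part of these cell types in the ratios of the ribosomal protein genes was not tested.

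**Figure D5:**
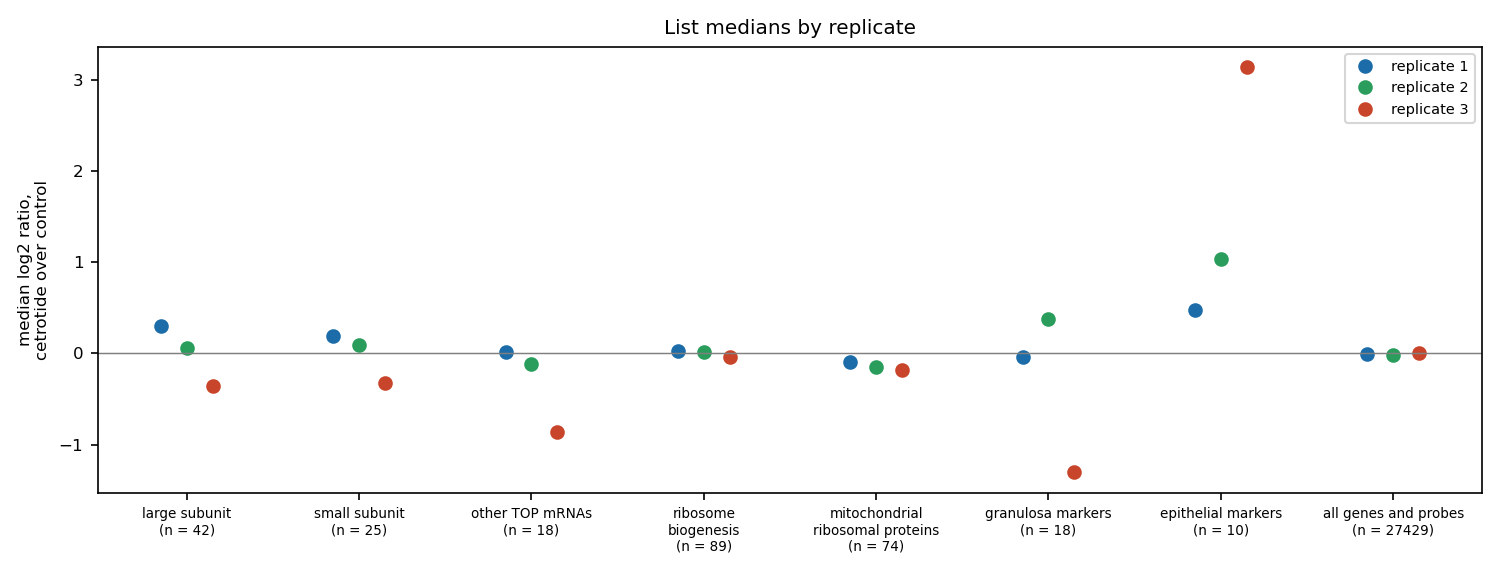
Median log2 ratio of cetrotide over control (y axis) of each gene list (x axis, with the number of genes tested) in each of the 3 replicates. Both ribosomal subunits, the other TOP mRNAs and the granulosa markers are lowest in replicate 3, where the epithelial markers are highest, at 3.14.

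RPS19BP1, the symbol match that is no ribosomal protein, was above 0 on all 6 arrays. Its replicate values were 0.32, 0.52 and 1.67, with a mean of 0.83 ± 0.73 and an adjusted p of 0.406 by limma. Its highest value was thus in replicate 3, where 59 of the 67 ribosomal protein genes were below 0.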

How the data were processed

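The authors deposited spot intensities from the scanner, not background corrected per the file headers, and a table of log2 ratios (base taken as 2) whose normalization no source used here gives. Per the labels' protocols, RNA was amplified over 2 rounds and labelled chemically. Here, mean intensities were corrected with normexp (offset 50) and loess-normalized within arrays in limma 3.58.1 (R 4.3.3), and ratios turned to cetrotide over control. Probes above the 95th percentile of the negative controls for 1 RNA on at least 4 of 6 arrays were kept. A gene was represented by its brightest kept probe. Symbols came from the platform annotation, and those of 1524 probes were updated through RefSeq (ARS-UCD2.0).

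Deviations of same-area arrays from their slide means correlated at 0.900, 0.934 and 0.954 across genes, so same-area arrays were averaged. The ratios themselves correlated less, at 0.618, 0.434 and 0.759 for areas 1, 2 and 3. Among the members they correlated at 0.671, 0.613 and 0.293, where pairs of differing area reached 0.327. Which cows these hold is not given, so a p-value reflects only how these averages spread. The 3 averages were tested against 0 in limma, adjusting over all 27429 tests by Benjamini-Hochberg. In the authors' deposited table, correlations with log2 Cy5 over Cy3 ran from -0.972 to 0.952, all columns ran cetrotide over control, and column medians were -0.00191, -0.000108, 0.000134, 0.00229, 0.00214 and 0.00748. The scale and centring steps behind it remain unknown. The fit was tested on simulated data. Members and lists were chosen with earlier results of these data known. Named genes were up to 8 per direction by p, the paralogues, the 5 brightest, those with probes of both signs over 0.5 apart and up to 4 per further list by p. Alternatives are given in the closing section.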

Additional observations from a re-analysis of the deposited data

Results flagged for a closer look

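For 4 named genes, every array with cetrotide RNA in Cy5 had a ratio above 0 and every array with it in Cy3 a ratio below 0, and slide and dye cannot be told apart. The Cy5 minus Cy3 difference of mean log2 ratios was 1.20 for RPS13, 0.86 for RPS4Y1, 0.69 for RPL7 and 0.60 for RPL34. The difference was not tested. Of the 67 members, 13 showed this split, against 7.81% of all tests, and all 13 had a mean log2 intensity above 14, where 20.3% of all tests showed it.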

How the results depend on the processing

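The adjusted counts depended on how same-area arrays were treated. With the replicate block and a dye term, limma called 411 tests higher and 264 lower, with 1 ribosomal protein gene (RPS26). With the 6 arrays as independent it called 1806 and 1458, with 4 such genes (RPL30, RPS13, RPS26 and RPS3A), and on the Cy3 arrays alone 662 and 225, with 2 (RPS13 and RPS26). The other settings called 0 of all tests. Members higher at an unadjusted p under 0.05 numbered 4 on the Cy5 arrays, 3 on the Cy3 arrays, 3 with independent arrays, 2 with the block, 2 with median pixels, and 1 each with the mean of all probes, the authors' deposited table and probes up to 14. Those lower numbered 9 on the Cy3 arrays, 9 with independent arrays, 8 without loess, 8 in the authors' deposited table, 7 with median pixels and 1 on the Cy5 arrays. Over these settings 6.75% to 15% of all tests were higher and 5.92% to 13.7% lower at that threshold. Leaving out each replicate gave 0 to 19 higher, with 19 without replicate 3, and 3 to 5 lower. In these fits 4.27% to 11% of all tests were higher and 2.77% to 6.43% lower. The large minus small difference was 0.16 with probes up to 14, -0.11 with median pixels, 0.17 on the Cy3 arrays and -0.12 in the authors' deposited table.

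Named genes whose mean changed sign did so mostly near 0. Without loess, RPL15 had -0.052, RPL27 -0.060, RPL7L1 -0.090, RPL22L1 -0.11, RPL12 -0.16, RPL10A -0.15 and RPL37 -0.033. On the Cy5 arrays RPL35 had -0.28, RPS13 0.17, RPL34 0.088, RPS4Y1 0.14, RPL22L1 -0.11 and RPL7 0.21, and on the Cy3 arrays RPL12 had -0.16, RPL10A -0.12 and RPL37 -0.044. With the mean of all probes RPL7L1 had -0.13, RPL12 -0.19 and RPL7 0.28, and with probes up to 14 RPL7 had 0.69. RPL12 had -0.043 with median pixels and -0.034 in the authors' deposited table. Leaving out each replicate in turn, RPL7L1 ran from -0.054 to 0.20, RPL22L1 from -0.46 to 0.72, RPL12 from -0.036 to 0.084 and RPL10A from -0.022 to 0.051. The cause was not tested. The pattern of above 0 in replicates 1 and 2 and below 0 in replicate 3 was held by 32 to 39 of 67 genes over 6 settings of background, normalization and source, against 11.8% to 12.5% of all tests. Without loess the replicate medians were 0.062, 0.11 and -0.70, with 36, 51 and 0 of 67 genes above 0. Precision was limited by 3 averages.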
